A study of Mus musculus with 8 samples.

Results

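Splicing factor and RNA helicase transcripts were taken as the genes whose symbol starts with Srsf, Hnrnp, Sf3, Prpf, Ddx, Dhx or Rbm, other than Rbm15 and Rbm15b, and that hold an m6A peak on their own strand in at least 1 of 4 peak lists. The rule found 95 genes among 4325 genes that had a peak in some list, and these genes held 475 of the 20732 peaks. They were 9 Srsf, 15 Hnrnp, 8 Sf3, 9 Prpf, 25 Ddx, 9 Dhx and 20 Rbm genes. RefSeq lists 151 protein-coding symbols with these prefixes, and the other 56 had no peak in any list, among them Srsf7, Hnrnpa3, Sf3b4, Prpf6, Ddx41, Dhx16 and Rbm5.

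N6-methyladenosine (m6A) is a methyl mark that a nuclear enzyme complex places on adenosines of messenger RNA while it is being made, mostly where a purine precedes the sequence AC. The proteins encoded by these genes act on the same RNA. SR proteins (Srsf) and hnRNPs bind exons and introns and set which splice sites are used, Sf3 and Prpf proteins are subunits of the spliceosome, DEAD-box (Ddx) and DEAH-box (Dhx) helicases use ATP to remodel RNA and RNA-protein complexes, and Rbm is a mixed family named only for an RNA-binding motif. Many of these genes also splice their own transcripts in alternative ways that limit how much protein is made.

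The cells were RAW264.7, a mouse macrophage line, exposed for 24 h to TBP, TCP or TIP, each at 100 µM, or left untreated as control; the labels do not spell out these abbreviations. RNA was immunoprecipitated with an m6A antibody and sequenced (MeRIP-seq), and the values are the peak lists that the authors deposited for it. There is 1 immunoprecipitated library per condition, so no test or p-value is given. The 4 input libraries were not analysed here. Every range in brackets is an exact Clopper-Pearson 95% interval and covers counting error alone, with no account of how cultures vary; peaks of a gene share their transcript and are not independent.

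The lists held 6285 peaks in TBP, 6981 in TCP, 3034 in TIP and 4432 in control, without read counts, so depth is unknown. Where a gene had no peak, its transcript may still have carried m6A. Because the libraries are bulk RNA, fewer cells with a transcript and less of it per cell cannot be told apart, and transcript levels were not analysed. Of 12 macrophage markers 8 had a peak in some list, 8 of them in TBP, 6 in TCP, 4 in TIP and 7 in control, with 26, 26, 18 and 24 peaks in the same lists, and none of 16 markers of T cells, B cells, epithelium and fibroblasts had one. The 3 compounds are set against the same control library.

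The peaks were short, with a median span of 50 bp in each list, and a few lie within the stretches around RefSeq start sites for which sequence was given. Such stretches were given for 83 of the 95 genes, some with several starts, and 7 peaks lay at least partly within one. The 5 shown are those of the 7 whose part in the stretch held the trinucleotide AAC or GAC, the core of the m6A consensus. Each is at most 30 bases long, on the strand of the transcript, from RefSeq sequence on GRCm38.p6, with GGAC, or else GAC or AAC, in capitals.
Hnrnpdl, TBP, chr5:100039297-100039321, minus strand: gagggcgcagcaagGGACtgagccg
Hnrnph1, TBP, chr11:50378297-50378326, plus strand: aatctgtgtGGACgccaGGACcaccgaagg
Prpf31, TIP, chr7:3629985-3630014, plus strand: aAACgtcatcaaagagagccgaagctctgg
Sf3a3, TCP, chr4:124714860-124714889, plus strand: agtggtccgccttgaAACgccgtggccaag
Sf3b6, control, chr12:4817594-4817618, plus strand: tagtgtGACttggagcatcttttct
The Hnrnph1 stretch held GGAC 2 times, and GGAC was present in 11.3% of the 32851 RefSeq windows over the same positions. Its start site is an internal one, since the RefSeq gene begins 3064 bp of genome upstream of the middle of the peak. The start site beside the Hnrnpdl stretch is internal too, the gene beginning 627 bp upstream of the middle of that peak. The Hnrnpdl stretch began 99 bases before its start site and held GGAC once, as did 7.91% of windows over the same positions. The Sf3b6 stretch began 14 bases before its start site, and its GAC lay upstream of that site. AAC was present in 26.3% of windows over the positions of the Prpf31 stretch and in 26.0% over those of Sf3a3, and GAC in 25.7% over those of Sf3b6; GAC also counts each GGAC. Only the strand of the transcript was searched, and a match describes the letters and is not a mapped methylation site. All 5 peaks were annotated to 5′ UTRs, and each was in 1 list only.

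By presence per list, 71 of the 95 genes had a peak in TBP (74.7%, 64.8 to 83.1), 77 in TCP (81.1%, 71.7 to 88.4), 46 in TIP (48.4%, 38.0 to 58.9) and 64 in control (67.4%, 57.0 to 76.6). Over all 4325 genes with a peak the same shares were 72.5% in TBP, 78.8% in TCP, 41.5% in TIP and 57.4% in control, inside the interval of the 95 genes for each list. The order of the lists among these genes, TCP, TBP, control and TIP, was the order of the lists' lengths. When each list was cut to its best-scored 3034 peaks, the length of the TIP list, the counts were 42 in TBP, 45 in TCP, 46 in TIP and 53 in control, of 68 genes still with a peak, so the order by presence rests on list length. These were 61.8%, 66.2%, 67.6% and 77.9% of the 68, against 64.8%, 64.7%, 62.2% and 65.6% of all 2885 genes left, so that the share of the 68 was farthest above that of all genes in control. Without peaks spanning over 500 bp control was again farthest above, at 68.1% against 57.5%. With peaks at or above each list's median score alone, TCP was farthest above and control was level. The shares in TBP, TCP, TIP and control were then 70.0%, 82.9%, 38.6% and 52.9%, against 72.1%, 77.3%, 37.3% and 52.8% of all genes. The 95 genes held 131 peaks in TBP, 155 in TCP, 79 in TIP and 110 in control, which was 2.08%, 2.22%, 2.60% and 2.48% of these lists.

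**Figure D1:**
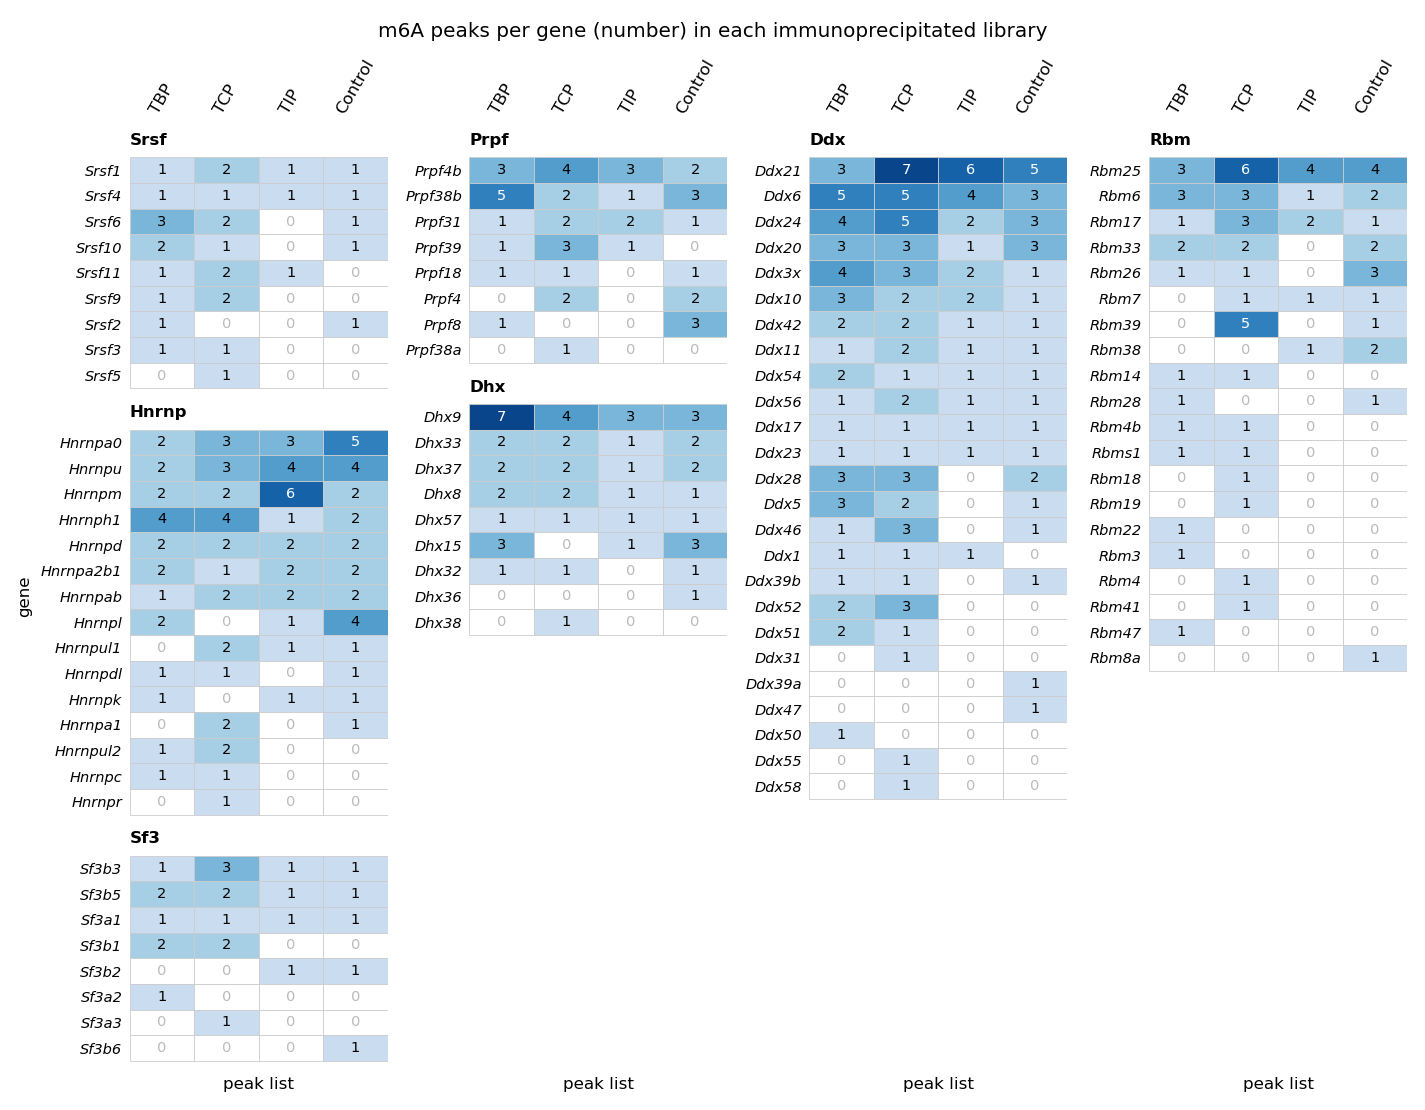
Number of m6A peaks of each of 94 of the 95 genes in the TBP, TCP, TIP and control lists, by family, with 0 where no peak was called. Ddx21 with 7 in TCP and Dhx9 with 7 in TBP have the highest single counts, and most genes hold 0, 1 or 2 peaks in a list.

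Members with a peak were also counted by family. Over all genes the shares were 72.5% in TBP, 78.8% in TCP, 41.5% in TIP and 57.4% in control. The SR protein genes had 8, 8, 3 and 5 of 9 members with a peak in TBP, TCP, TIP and control, the spliceosomal Prpf genes 7, 8, 5 and 6 of 9, and the Sf3 genes 5, 5, 4 and 5 of 8. Of the 15 hnRNP genes, 12 had a peak in TBP, 13 in TCP, 10 in TIP and 12 in control. The DEAD-box genes had 20, 22, 13 and 18 of 25, and the DEAH-box genes 7, 7, 6 and 8 of 9. The Rbm genes had 12, 14, 5 and 10 of 20, the lowest share of the 7 families in TBP, in TIP and in control. The intervals of the families overlapped one another in every list, and each held the share over all genes.

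**Figure D2:**
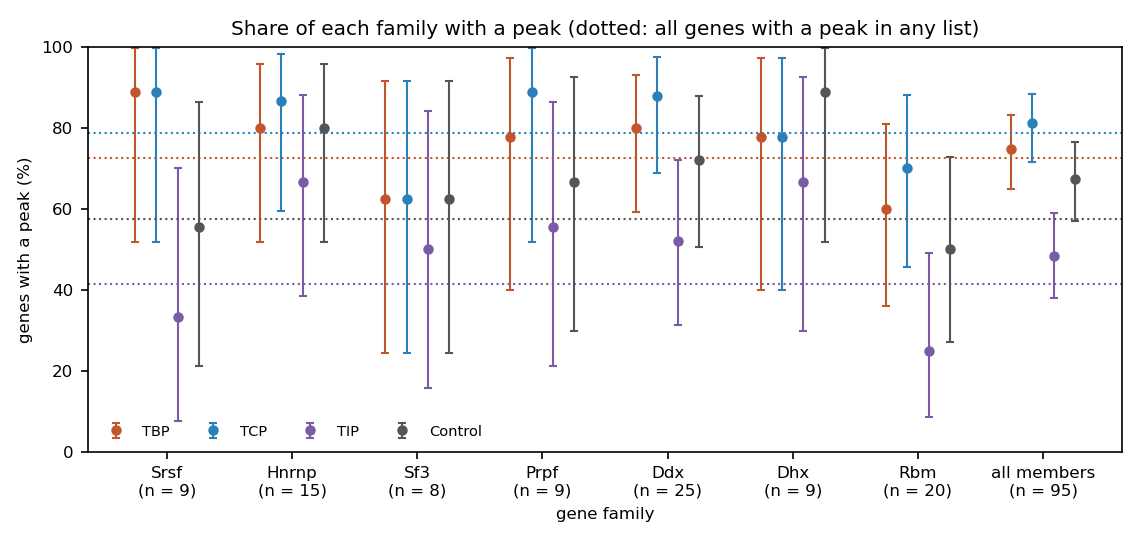
Share of the genes of each family with a peak in TBP, TCP, TIP and control, in percent, with exact 95% intervals for counting error (n = genes with a peak in any list); dotted lines give the same share over all 4325 genes. All 95 genes together lie at 74.7%, 81.1%, 48.4% and 67.4%, above the dotted lines of 72.5%, 78.8%, 41.5% and 57.4%, by the most in control.

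Against control, a gene with a peak under a compound but not in control is called gained, and one with a peak in control alone of the pair is called lost. TBP gained 19 of the 95 genes (20.0%, 12.5 to 29.5) against 25.0% of all genes, and lost 12 (12.6%, 6.70 to 21.0) against 9.94%. TCP gained 26 (27.4%, 18.7 to 37.5) against 30.6% of all genes, and lost 13 (13.7%, 7.49 to 22.3) against 9.25%. TIP gained 4 (4.21%, 1.16 to 10.4) against 7.63% of all genes, and lost 22 (23.2%, 15.1 to 32.9) against 23.6%. The share over all genes lay inside the interval of the 95 genes in all 6 cases. With each list at 3034 peaks, TBP gained 8 and lost 19 of the 68 genes still with a peak. TCP then gained 10 and lost 18, and TIP gained 7 and lost 14. Whether gains or losses were more frequent in TBP and TCP thus depends on list length. The shares over all genes at this length are not given here, so these counts cannot be set against them.

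Genes lost in TIP included helicases and splicing regulators with several peaks elsewhere. Ddx5, a helicase that acts in splicing and microRNA processing, had 3 peaks in TBP, 2 in TCP, 0 in TIP and 1 in control. Ddx28, a helicase of mitochondrial ribosome assembly, had 3 in TBP, 3 in TCP, 0 in TIP and 2 in control. Prpf8, the large protein at the centre of the spliceosome, had 1 in TBP, 0 in TCP, 0 in TIP and 3 in control, each control peak in a different internal exon and none shared with TBP. Ddx5 and Ddx28 thus lacked a peak in TIP alone, and Prpf8 had fewer peaks than control in all 3 compound lists. The peaks of Prpf8 were low in their lists: none was left with each list at 3034 peaks or at or above its median score. By the lists' own nearest gene, Ddx28 had no peak.

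Presence in all 4 lists was seen for 35 of the 95 genes (36.8%, 27.2 to 47.4), against 29.8% of all genes. They were 12 of the 25 Ddx, 5 of the 9 Dhx, 7 of the 15 Hnrnp, 3 each of the Sf3, Prpf and Rbm, and 2 of the 9 Srsf genes. Peaks in control and in no compound list were held by 5 genes (5.26%), against 3.77% of all genes. These were Ddx39a, an mRNA export helicase, Ddx47, a nucleolar helicase, Dhx36, which unwinds G-quadruplexes, Rbm8a, a core protein of the exon junction complex, and Sf3b6, which lies at the branch adenosine. Each of them had a single control peak, of 25 or 50 bp. The reverse pattern, a peak in each of the 3 compound lists and none in control, was held by 4 genes (4.21%), against 3.54% of all genes. Among them, Ddx1, a helicase of the tRNA ligase complex, had 1 peak each in TBP, TCP and TIP. Prpf39, a factor of the U1 snRNP, had 1 in TBP, 3 in TCP and 1 in TIP, and Srsf11, an SR-like protein, had 1 in TBP, 2 in TCP and 1 in TIP. All peaks of Prpf39 were placed by its RefSeq span alone, and the lists' own nearest gene left it none. In none of these 3 genes did 1 position carry a peak in all 3 compound lists: in Ddx1, for example, the TCP and TIP peaks overlapped in exon 25 of 26 and the TBP peak lay in exon 22.

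Between the compounds, given at the same dose and time, 3 pairs were compared over the 95 genes, with no replicate to test a difference. TCP and TBP shared 60 genes, with 17 in TCP only and 11 in TBP only. TIP and TBP shared 42, with 4 in TIP only and 29 in TBP only. TIP and TCP shared 41, with 5 in TIP only and 36 in TCP only. The genes shared by TIP and TBP were 91.3% of those in TIP and 59.2% of those in TBP, against 85.9% and 49.2% over all genes. Those shared by TIP and TCP were 89.1% of those in TIP and 53.2% of those in TCP, against 89.4% and 47.1%. Those shared by TCP and TBP were 77.9% of those in TCP and 84.5% of those in TBP, against 72.5% and 78.8%. TCP alone held a peak in 12 of the 95 genes (12.6%) and TBP alone in 5 (5.26%), against 14.4% and 9.69% of all genes, and no gene of the 95 had one in TIP alone, against 1.36% of all genes. The single-list genes of TCP included Ddx58, which encodes the viral RNA sensor RIG-I, with 1 peak of 25 bp in its last exon.

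To ask whether the same positions carried the peaks, peaks of the 4 lists that shared at least 1 bp on a strand were joined into a site. Joining ran along chains of peaks, so a site in all 4 lists need not hold a base common to all 4. At the Sf3b5 and Dhx8 sites, for example, the TIP and TCP peaks adjoined without sharing a base. The 95 genes had 316 sites, of which 21 (6.65%, 4.16 to 9.98) were present in all 4 lists, 24 in 3, 44 in 2 and 227 (71.8%, 66.5 to 76.7) in 1. Over all peaks, 10.6% of 11586 sites were present in all 4 lists and 60.6% in 1. By family, sites in all 4 lists were 9 of 88 in Ddx, 4 of 30 in Dhx, 3 of 14 in Sf3, 3 of 31 in Prpf, 1 of 23 in Srsf, 1 of 50 in Rbm and 0 of 80 in Hnrnp. For the hnRNP genes the upper end of the interval was 4.51%, and 85.0% of their sites (75.3 to 92.0) were in 1 list.

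**Figure D3:**
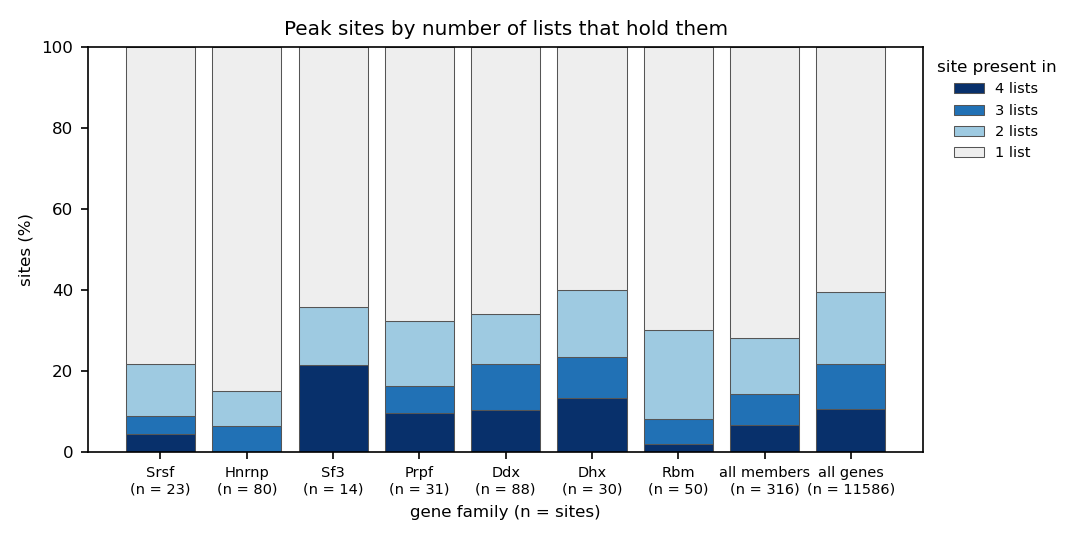
Share of peak sites present in 4, 3, 2 or 1 of the lists, in percent, by family, for all 95 genes and for all genes (n = sites). Hnrnp sites have no part in the 4-list class, against 6.65% for the 95 genes together and 10.6% for all genes.

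The 7 hnRNP genes with a peak in every list had no site in all 4 lists. Of the 35 genes with a peak in all 4 lists, 20 (57.1%, 39.4 to 73.7) had at least 1 site in all 4, against 73.9% of the 1287 such genes overall. Among them it was 0 of 7 Hnrnp genes and 20 of the 28 others (71.4%, 51.3 to 86.8). Some of the others, such as Sf3b5 and Dhx8, had such a site without a base common to all 4 lists. Genes with a common base were not counted. With peaks up to 100 bp apart joined, a choice made after seeing the data, it was 3 of 7 Hnrnp genes, 22 of the 28 others (78.6%) and 85.4% of all such genes; Hnrnpa2b1, Hnrnpd, Hnrnph1 and Hnrnpm then still had none. The difference between Hnrnp and the others was not tested, because sites of a gene are not independent and a condition has 1 library.

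The same was seen from the control peaks. Of the 110 control peaks in the 95 genes, TBP peaks overlapped 47 (42.7%, 33.3 to 52.5), TCP peaks 43 (39.1%, 29.9 to 48.9) and TIP peaks 31 (28.2%, 20.0 to 37.6). Of all 4432 control peaks, TBP overlapped 57.3%, TCP 55.7% and TIP 35.3%. In the hnRNP genes 4, 5 and 4 of 27 control peaks were overlapped by TBP, TCP and TIP, which is 14.8%, 18.5% and 14.8%. In the other 6 families it was 43, 38 and 27 of 83, which is 51.8%, 45.8% and 32.5%. The hnRNP peaks were more often at both ends of the range of widths. Of them 54.6% (44.2 to 64.8) spanned 25 bp, the narrowest width in the lists, against 39.4% in the other 6 families and 36.1% of all other peaks, and 7.22% (2.95 to 14.3) spanned over 500 bp, against 3.17% and 1.64%. The part of the narrow peaks in the low overlap was not tested. Without the 25 bp peaks, a choice made after seeing the data, 11 hnRNP control peaks and 50 in the other families were left. TBP overlapped 2 of the 11 (18.2%, 2.28 to 51.8) and 29 of the 50 (58.0%). TCP overlapped 4 (36.4%, 10.9 to 69.2) and 21 (42.0%), and TIP 3 (27.3%, 6.02 to 61.0) and 15. The hnRNP share was thus lower for each compound, but for TCP and TIP its interval held the share in the other families. Among control peaks at or above the median score, also a later choice, TBP overlapped 66.0% of those in the 95 genes and 67.8% of all, while TCP overlapped 50.9% and 63.7%, and TIP 28.3% and 38.7%. With each list at 3034 peaks, TBP overlapped 45.2% of control peaks in the 95 genes and 57.0% of all, TCP 42.5% and 53.4%, and TIP 41.1% and 48.2%. The share in the 95 genes was thus below that of all peaks under each of these settings, and by the least for TBP at the median score. At the median score and at equal list length, the share of all peaks lay inside the interval of the 95 genes for each compound. In the families other than Hnrnp, TBP, TCP and TIP overlapped 78.0%, 58.5% and 34.1% at the median score, that of TBP above all peaks. With each list at 3034 peaks it was 52.6%, 47.4% and 45.6%, each below all peaks.

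Among the SR proteins, Srsf4, a regulator of splice site choice, had 1 peak in each of TBP, TCP, TIP and control, all in the 3′ UTR at chr4:131901071-131901170. It was the only SR gene with a site in all 4 lists. Srsf1, which binds exonic enhancers, had 1 peak in TBP, 2 in TCP, 1 in TIP and 1 in control, all in its 3′ UTR and none overlapping another. Srsf6, another enhancer-binding SR protein, had 3 in TBP, 2 in TCP, 0 in TIP and 1 in control, all in the 3′ UTR. Its control peak, 153 bp wide, was overlapped by 1 TBP peak of 25 bp. Srsf10, which represses splicing when dephosphorylated, had 2 in TBP, 1 in TCP, 0 in TIP and 1 in control, with a site in exon 3 of 7 shared by TBP, TCP and control. Over the family, 24 of 31 peaks lay in 3′ UTRs (77.4%, 58.9 to 90.4) and none in 5′ UTRs.

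Among the hnRNPs, Hnrnpu, which binds nuclear RNA and chromatin, had 2 peaks in TBP, 3 in TCP, 4 in TIP and 4 in control. Its best-scored peak ranked 66 of 6285 in TBP, 142 of 6981 in TCP, 397 of 3034 in TIP and 31 of 4432 in control. The TBP peak lay within the control peak at chr1:178329328-178329402, and the TCP and TIP peaks, at chr1:178329303-178329327, adjoined it without sharing a base. All 4 lists thus had a peak within 100 bp there, although no site covered all 4. Hnrnpa0, which binds AU-rich elements of cytokine mRNAs, had 2 in TBP, 3 in TCP, 3 in TIP and 5 in control, at 9 sites, of which 2 were in 3 lists. Hnrnpm had 2 in TBP, 2 in TCP, 6 in TIP and 2 in control. Hnrnph1, which binds G-rich elements, had 4 in TBP, 4 in TCP, 1 in TIP and 2 in control, and none of its 11 peaks overlapped another. Hnrnpl, which binds CA repeats, had 2 in TBP, 0 in TCP, 1 in TIP and 4 in control. The family's counts were thus highest in control for Hnrnpa0 and Hnrnpl and highest in TIP for Hnrnpm. Its peaks were annotated to internal exons in 46.4% (36.2 to 56.8) and to 3′ UTRs in 36.1% (26.6 to 46.5), the lowest 3′ UTR share of the 7 families.

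Among the SF3 subunits, which hold the U2 snRNP at the branch site, 3 genes had a site in all 4 lists, each in the 3′ UTR. That of Sf3b3, at chr8:110810739-110810888, ranked 619 in TBP, 748 in TCP, 733 in TIP and 669 in control. Sf3b5 had 2 peaks in TBP, 2 in TCP, 1 in TIP and 1 in control, with its site at chr10:13008943-13009067. Sf3a1 had 1 in each of TBP, TCP, TIP and control, at chr11:4180395-4180494. Sf3b1, the largest subunit and the one that contacts the branch helix, had 2 in TBP, 2 in TCP, 0 in TIP and 0 in control. A TBP and a TCP peak of Sf3b1 overlapped at the end of its coding sequence, where the annotations were to the last exon and to the 3′ UTR. The SF3 subunits thus differed, with 1 site in all 4 lists in each of Sf3b3, Sf3b5 and Sf3a1 and none in Sf3b1. The Sf3b3 site was placed by the RefSeq span alone: by the lists' own nearest gene Sf3b3 had no peak.

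Among the Prpf genes, Prpf38b, a serine-rich splicing protein, had 5 peaks in TBP, 2 in TCP, 1 in TIP and 3 in control, all in the 3′ UTR. Prpf4b, a kinase of spliceosomal proteins, had 3 in TBP, 4 in TCP, 3 in TIP and 2 in control. Its site in all 4 lists lay in exon 2 of 15, at chr13:34883663-34883787. Prpf31, a protein of the U4/U6 snRNP, had 1 in TBP, 2 in TCP, 2 in TIP and 1 in control, and the stretch printed above is the start of its 5′ UTR peak in TIP. The other peaks of Prpf31 were placed by its RefSeq span alone, and by the lists' own nearest gene it had a peak in 1 list. Prpf4, another U4/U6 protein, had 0 in TBP, 2 in TCP, 0 in TIP and 2 in control. No peak of this family was annotated to a last exon, while 69.4% (54.6 to 81.7) were annotated to 3′ UTRs.

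Among the DEAD-box helicases, Ddx24, a nucleolar helicase, had the best-scored peak of the 95 genes in TBP. It had 4 peaks in TBP, 5 in TCP, 2 in TIP and 3 in control. Its peak in exon 3 of 9, within chr12:103419219-103419443, ranked 48 in TBP, 184 in TCP, 17 in TIP and 59 in control. The TIP scores were coarse, with 301 peaks tied at rank 17. Ddx6, a helicase of decapping complexes and P-bodies, had 5 in TBP, 5 in TCP, 4 in TIP and 3 in control, and its 5′ UTR site at chr9:44607130-44607379 ranked 221, 37, 17 and 202 in the same lists. It was the only one of the 95 genes with 2 sites in all 4 lists, the other lying in the 3′ UTR at chr9:44636547-44636646. Ddx21, a nucleolar helicase of ribosomal RNA synthesis, had 3 in TBP, 7 in TCP, 6 in TIP and 5 in control. These fell at 16 sites, none of them in all 4 lists. Ddx3x, which helps translation initiation, had 4 in TBP, 3 in TCP, 2 in TIP and 1 in control, and the control peak overlapped none of the others. Ddx24 and Ddx6 thus had a position shared by all 4 lists, and Ddx21 and Ddx3x did not.

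Ddx20, of the SMN complex that assembles snRNPs, had 3 peaks in TBP, 3 in TCP, 1 in TIP and 3 in control. Its 3′ UTR site at chr3:105678420-105678619 was in all 4 lists and ranked 402, 240, 654 and 289 in TBP, TCP, TIP and control. Ddx52 and Ddx51, helicases of ribosome assembly, had no peak in TIP or control. Ddx52 had 2 in TBP and 3 in TCP, and Ddx51 had 2 in TBP and 1 in TCP, all in 3′ UTRs. The peaks of Ddx52 were placed by its RefSeq span alone, and the lists' own nearest gene left it none. Ddx10, also a ribosome assembly helicase, had 3 in TBP, 2 in TCP, 2 in TIP and 1 in control. By textbook role, 12 of 15 listed ribosome biogenesis helicases had a peak in some list, 9 in TBP, 11 in TCP, 7 in TIP and 8 in control. These were 75.0%, 91.7%, 58.3% and 66.7% of the 12, against 72.5%, 78.8%, 41.5% and 57.4% of all genes. Of 13 listed splicing and export helicases 11 had one, 9 in TBP, 9 in TCP, 6 in TIP and 10 in control, which is 81.8%, 81.8%, 54.5% and 90.9% of the 11. Of 7 helicases of translation and decay 3 had one (2, 2, 2 and 3 in TBP, TCP, TIP and control), and of 4 listed helicases of innate sensing 1 had one, in TCP.

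Among the DEAH-box helicases, Dhx9, which unwinds duplexes made by inverted repeats, had 7 peaks in TBP, 4 in TCP, 3 in TIP and 3 in control. They fell at 14 sites, none in more than 2 lists. Dhx33, a nucleolar helicase, had 2 in TBP, 2 in TCP, 1 in TIP and 2 in control. Its 3′ UTR site at chr11:70986741-70986965 ranked 319, 348, 17 and 252 in TBP, TCP, TIP and control. Dhx37, a ribosome assembly helicase, had 2 in TBP, 2 in TCP, 1 in TIP and 2 in control, with a 3′ UTR site in all 4 lists. All peaks of Dhx33 were placed by its RefSeq span alone, and by the lists' own nearest gene it had a peak in 1 list. Dhx15, which takes spliceosomes apart, had 3 in TBP, 0 in TCP, 1 in TIP and 3 in control, at 6 sites of which 1 was shared, by TBP and control. Dhx33 and Dhx37 thus had a position shared by all 4 lists, and Dhx9 and Dhx15 did not.

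Among the Rbm genes, Rbm25, which guides alternative splicing with the U1 snRNP, had 3 peaks in TBP, 6 in TCP, 4 in TIP and 4 in control. Rbm39, a splicing coactivator related to the U2 auxiliary factor, had 0 in TBP, 5 in TCP, 0 in TIP and 1 in control, and none of the 6 peaks overlapped another. Rbm6 had 3 in TBP, 3 in TCP, 1 in TIP and 2 in control. Its 5′ UTR peak in TCP, at chr9:107853069-107853268, ranked 112 and overlapped peaks of TBP and control, and the TIP peak adjoined it. Rbm17, which acts in late spliceosome assembly, had 1 in TBP, 3 in TCP, 2 in TIP and 1 in control, and its 3′ UTR site at chr2:11585512-11585636 was in all 4 lists. Rbm26, an RNA-binding protein of nuclear RNA decay, had 1 in TBP, 1 in TCP, 0 in TIP and 3 in control. Rbm33 had 2 in TBP, 2 in TCP, 0 in TIP and 2 in control.

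**Figure D4:**
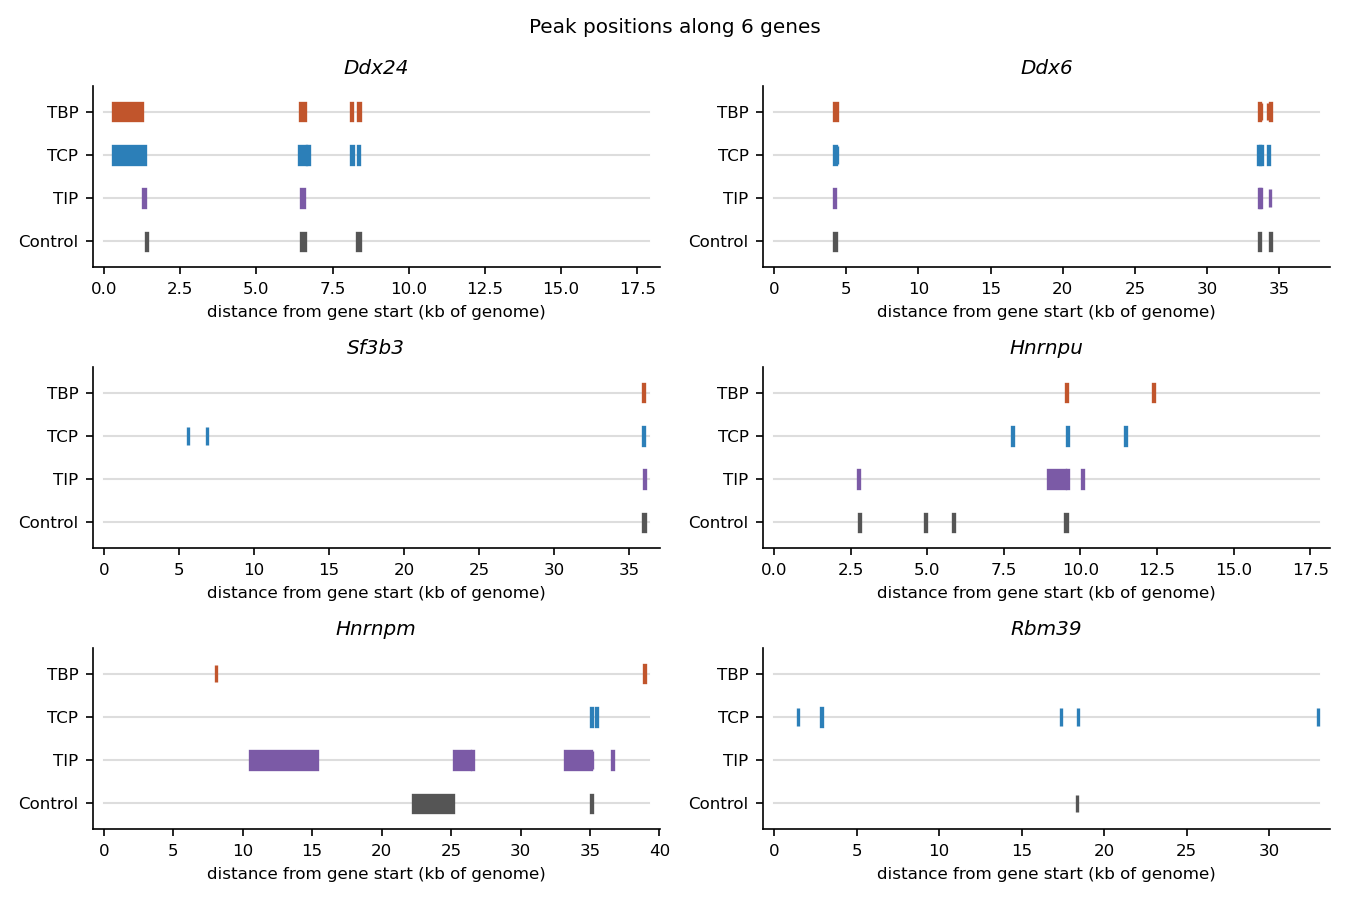
Peak positions along 6 genes, in kb of genome from the gene start, in TBP, TCP, TIP and control (bars to scale; the outline widens the narrowest ones). Ddx24, Ddx6 and Sf3b3 show a position shared by all 4 lists, while Hnrnpm has 1 site in 3 lists and its other positions in 1 list each, 3 of them wide spans of TIP, and no peaks of Rbm39 overlap.

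By the authors' annotation, 55.2% of the 475 peaks (50.6 to 59.7) lay in 3′ UTRs, 38.3% (33.9 to 42.9) in exons outside UTRs and 6.53% (4.48 to 9.14) in 5′ UTRs. For the peaks of all other genes these shares were 49.6%, 46.6% and 3.80%. The last exon outside the UTR held 5.89% (3.95 to 8.41) of the 475 peaks against 15.1% of the others, and internal exons 29.9% against 27.9%. Last exon and 3′ UTR annotations could differ at the same site, as for overlapping peaks of different lists in Ddx21 and Sf3b1. What this adds to the 3′ UTR and last exon shares was not tested. The low share in last exons was seen in 6 families, between 0% in Prpf and 6.45% in Srsf, while Ddx had 12.2% (7.37 to 18.5); the intervals of Srsf and Sf3 reached above 15.1%. The 3′ UTR share by list was 60.3% in TBP, 53.5% in TCP, 51.9% in TIP and 53.6% in control, and the 5′ UTR share 6.87%, 6.45%, 5.06% and 7.27% in the same lists. Rbm had 68.1%, Dhx 62.3%, Sf3 68.0% and Ddx 47.3% of their peaks in 3′ UTRs. A 3′ UTR annotation did not always mean the end of the gene: 48 of the 262 such peaks (18.3%), in 11 genes, lay over 5000 bp of genome from the RefSeq 3′ end, 13 of them in Rbm25 and 7 in Dhx9, and the transcripts behind these annotations were not examined. By covered length in place of number the shares changed, to a 3′ UTR share of 27.3% in TCP, 12.1% in TIP and 38.2% in control, since the widest peaks then weigh most.

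**Figure D5:**
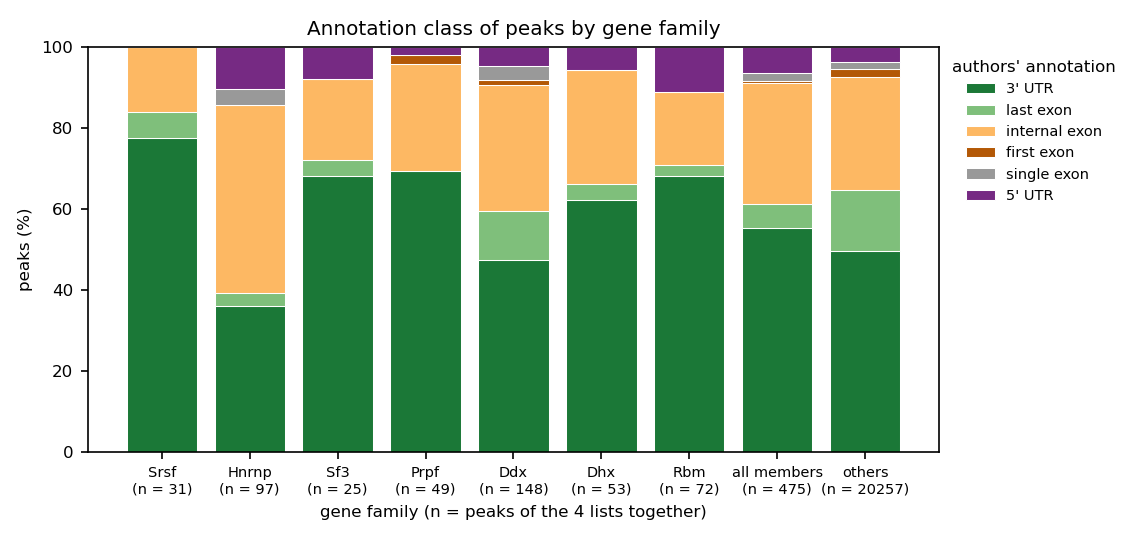
Share of peaks in each annotation class, in percent, by family, for all 95 genes and for the peaks of all other genes (n = peaks of the 4 lists together). Hnrnp has the largest internal exon part, 46.4%, and last exons hold 5.89% for the 95 genes against 15.1% for the others.

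Wide peaks were most frequent in TIP. Peaks spanning over 500 bp of genome were 4 of 131 in TBP (3.05%, 0.838 to 7.63), 4 of 155 in TCP (2.58%, 0.708 to 6.48), 10 of 79 in TIP (12.7%, 6.24 to 22.0) and 1 of 110 in control (0.909%, 0.0230 to 4.96). Among the peaks of all other genes the shares were 1.40% in TBP, 2.24% in TCP, 1.46% in TIP and 1.16% in control. The 10 wide TIP peaks lay in 8 genes, among them 3 peaks in Hnrnpm and 1 each in Ddx21, Ddx3x, Dhx9, Hnrnpu, Hnrnpul1 and Rbm25. Their spans ran from 535 bp in Hnrnpu to 4868 bp in Hnrnpm, and the Hnrnpul1 and Ddx21 peaks spanned 3400 and 3286 bp. Hnrnp genes held 5 of the 10, which was 21.7% of 23 Hnrnp peaks in TIP (7.46 to 43.7), and the other 6 families 8.93% of 56 (2.96 to 19.6). The single wide control peak, of 2935 bp, was also in Hnrnpm and overlapped no TIP peak. In TCP the widest spanned 11047 bp in Hnrnpd, and in TBP 1225 bp in Rbm3, a cold-induced protein. The TIP peak of 1900 bp in Hnrnpm, annotated to exon 13, adjoins a control peak in exon 14. The TIP peak of 852 bp in Dhx9, annotated to exon 27, adjoins a TCP peak in exon 28. By these annotations both spans include an intron. Whether the other wide spans cross introns was not examined.

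The best-scored 10% of each list held 9.16% of the peaks of the 95 genes in TBP, 5.81% in TCP, 5.06% in TIP and 9.09% in control, against 10.5%, 10.2%, 10.4% and 10.2% of all peaks, ties included. Scores of different lists share no stated scale and were compared by rank within a list only.

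Other genes with the same roles were described from lists of textbook members outside the 7 prefixes. Of 103 other splicing factors, 59 had a peak in some list, 40 in TBP, 52 in TCP, 29 in TIP and 36 in control. These were 67.8%, 88.1%, 49.2% and 61.0% of the 59, against 72.5%, 78.8%, 41.5% and 57.4% of all genes. TBP gained 10 and lost 6 of the 59 (16.9% and 10.2%), against 25.0% and 9.94% of all genes. TCP gained 19 and lost 3 (32.2% and 5.08%), against 30.6% and 9.25%, and TIP gained 4 and lost 11 (6.78% and 18.6%), against 7.63% and 23.6%. Son, a large speckle protein, had the most peaks of this list, with 22 in TBP, 11 in TCP, 10 in TIP and 15 in control. Srrm2, another speckle protein, had 9 in TBP, 9 in TCP, 8 in TIP and 10 in control. Of the 23 other RNA helicases with a RefSeq symbol 8 had a peak, 7 in TBP, 8 in TCP, 4 in TIP and 3 in control, where 72.5%, 78.8%, 41.5% and 57.4% of all genes had one. Dicer1, which cuts microRNA precursors, had 6 in TBP, 4 in TCP, 1 in TIP and 0 in control. Son, Srrm2 and Dicer1 lie outside the rule for named genes and were chosen after their values were seen.

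Several members have close copies between which reads cannot be told apart with certainty from these files, among them Ddx3x and Ddx3y, Rbm4 and Rbm4b, Rbm8a and its retrocopy, and Hnrnpa1 with its pseudogenes. Ddx3y had no peak in any list, Rbm4 had 1 peak, in TCP, and Rbm4b had 1 in TBP and 1 in TCP.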

How the data were processed

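The deposited peak lists of 4 immunoprecipitated libraries were used, 1 per condition; the 4 input libraries were not analysed here. The authors deposited, per the file headers, each peak's position, strand, width, annotation and nearest gene, and 1 score per peak with no stated scale. The submitters' processing notes name, among other tools and without a role for each, ChIPseeker 1.26, HOMER 4.11, HISAT2 2.1.0 and Trim Galore 0.6.5, on GRCm38 (mm10). Which program called the peaks, at what threshold and with what use of input is not given in the sources used here.

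The gene of a peak was the gene holding it on its strand, found in 3 steps: the exon annotation (38.3% of the 475 peaks), the nearest gene if it held the peak (45.3%), or 1 RefSeq gene span on GRCm38.p6 (16.4%). This placed 98.6% of all peaks, and for 22.5% of the 475 the gene was not the one in the nearest-gene column, which, for example, names Hnrnpa3 for 18 peaks held by Nfe2l2. On simulated peaks, the overlap, the joining of sites and the nearest-gene step returned what was planted. For that placing step the true gene was supplied as the nearest gene. The exon annotation and RefSeq span steps were not tested in this way. No strand was available for Ddx23, so its 4 peaks were placed by RefSeq span without a check of strand. Overlap needed at least 1 bp on the same strand. Counting used Python 3.11.15, pandas 2.3.3, numpy 2.4.6, scipy 1.17.1 and matplotlib 3.10.9. Exact intervals are at the 95% level.

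Genes and lists were chosen with earlier results of these data known. The rule for named genes took, per family, up to 4 genes with the most peaks; all genes in control alone or in the 3 compound lists without control; per compound the 5 largest gains and 5 largest losses in peak number; and per list the 3 genes with the best-scored peaks. It named 46 genes, and results for some genes are not reported here; others are given as examples of a count. Alternatives changed the gene of a peak, list length, score minimum, peak width, overlap and length weighting.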

Additional observations from a re-analysis of the deposited data

How the results depend on the processing

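No paired analysis was possible because the labels give no replicate numbers and each condition has 1 library; for the same reason no replicate could be left out. With equal list lengths (3034 peaks each), 68 of the genes kept a peak, 42 of them in TBP and 45 in TCP. TBP then gained 8 and lost 19, TCP gained 10, and TIP gained 7 and lost 14. TIP overlapped 41.1% of control peaks. At a score minimum set to each list's own median, 70 genes kept a peak, 27 of them in TIP and 37 in control. These were 38.6% and 52.9% of the 70, against 37.3% and 52.8% of all genes left. TBP then lost 6 and TIP gained 7. Shares of gained and lost over all genes are not given for these settings. At the median score TBP overlapped 66.0% and TCP 50.9% of control peaks, the overlaps being an alternative added after seeing the data. By covered length, 5′ UTRs took 13.1% of TBP, 42.6% of TCP and 15.8% of TIP, with a 3′ UTR share of 27.3% in TCP, 12.1% in TIP and 38.2% in control, and an exon share of 30.1% in TCP, 72.2% in TIP and 55.5% in control. Without the 25 bp peaks, also added later, 10 sites were in all 4 lists, against 21. Fewer peaks per list, or a few wide spans, enter these values by construction. The other 89 values for the comparisons kept within 1.5 times the count or within the interval, and of 444 values for families and single genes 77 moved. Of the 46 named genes, 5 had no peak by the lists' own nearest gene (Ddx28, Ddx39a, Ddx52, Prpf39 and Sf3b3), 4 had none at equal list lengths (Ddx39a, Ddx51, Prpf8 and Rbm39) and 6 had none at the median score, Prpf8 again among them. The lists give no depth, and ties in TIP scores limit its ranks.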
